A study of Mus musculus with 9 samples.

Results

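The comparison described here set cultures of bone marrow progenitors in which Drosha had been deleted against control cultures. By their sample titles, 3 arrays belonged to the Drosha-deleted group and 3 to the control group, 6 of the 9 arrays in the series. The other 3 arrays held Dicer-deleted cultures and served as a further reference. All mice were female, of the strain Gt(ROSA)26Sor CreERT2, in which the ubiquitous ROSA26 locus drives a Cre recombinase that 4OH-tamoxifen switches on. The genotypes were control, Drosha fl/fl and Dicer fl/fl, and no age was given in the sources used here. LSK cells (lacking lineage markers, positive for Sca1 and cKit), a fraction enriched for blood stem cells, were sorted and cultured at 50000 cells per well for 72 h. The medium held 250 nM 4OH-tamoxifen, 10 ng/mL IL-3, 10 ng/mL IL-6, 50 ng/mL stem cell factor and 10% FCS. Controls therefore carried the same Cre strain and received the same drug. The labels do not say whether replicates came from separate animals, so p-values measure the spread between these samples, which may be technical.

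Drosha is the nuclear RNase III enzyme that, with its RNA-binding partner DGCR8, crops the hairpin of a microRNA out of a long primary transcript. Dicer then cuts the exported hairpin to the mature microRNA in the cytoplasm. Without either enzyme most microRNAs are not made, but only Drosha acts on the primary transcripts, and Drosha also cleaves hairpins in a few messenger RNAs, among them that of Dgcr8 itself.

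Expression was measured on 1-colour Agilent arrays, and levels below are the authors' normalised log2 values for single probes. Levels of different probes cannot be set against each other. Differences are Drosha-deleted minus control on the log2 scale unless another comparison is named, with the standard error (SE) and the adjusted p of limma (Benjamini-Hochberg over all 23054 features tested, threshold 0.05). Errors beside group means are SD with n = 3.

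The control group was uneven. In the authors' columns, control replicates 2 and 3 lay apart from the other 7 columns. Control 2 resembled control 3 most (Pearson r = 0.991 across probes, which are not independent replicates), and control 1 resembled Dicer-deleted replicate 3 most (r = 0.993). The bright corner spots of the array, a hybridisation control, averaged 13.73 in control 2 and 13.85 in control 3, against 15.35 to 15.56 in the other 7 columns. The scanner file of control 2 also stood apart, with 93.2% of probes well above background against 54.2% to 62.3% elsewhere and 18.9% of spots not uniform, and its own column correlated with it at only r = 0.770 (at least 0.974 for the other arrays). Control 3 was on another slide from the other 8 arrays. The part of these differences in the results below was not tested, and results are therefore also given against control 1 alone.

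Of the 23054 features, 29 rose in the Drosha-deleted cultures (0.126% of those tested) and 12 fell (0.0521%), 0.178% in all. At an unadjusted p under 0.05 the share was 15.4% higher and 11.5% lower. The number of calls depended on single columns. Without control 2 there were 6 calls, 4 higher and 2 lower, and without control 1 there were 7751. With control 1 as the only control there were 33, of which 15 were higher (0.0651%) and 18 lower (0.0781%), and 11 were among the 41. The 5 features called in each of the 9 fits with 1 column left out were Drosha, Lrmda, Aopep, the region between Jak1 and Ak4 and the region between Kcnrg and Dleu7.

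**Figure D1:**
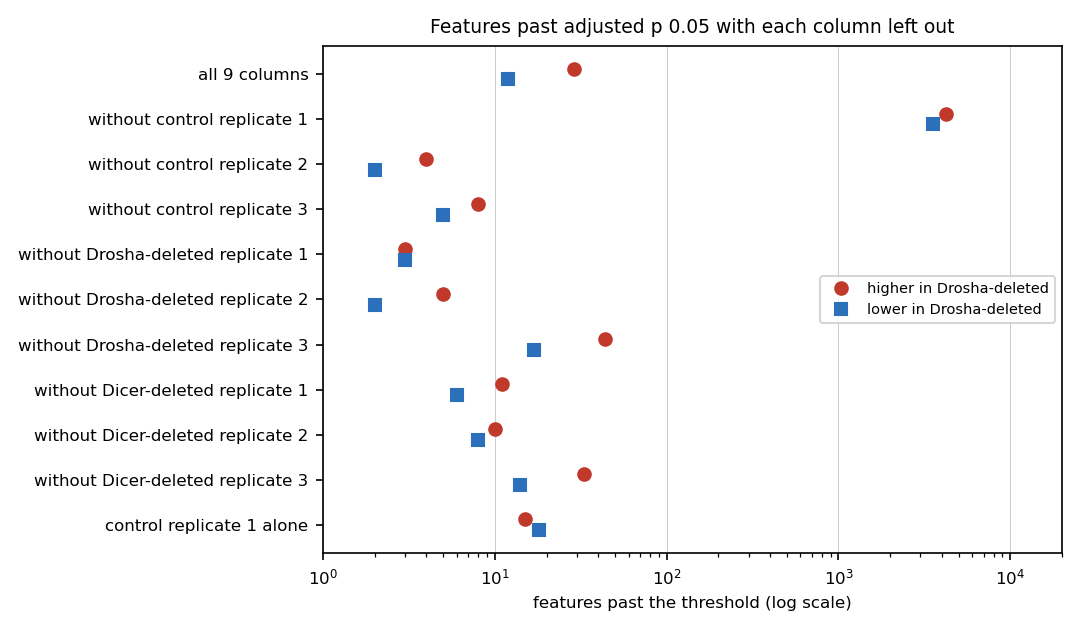
Number of features past an adjusted p of 0.05 in Drosha-deleted against control (log axis) in the fit to all 9 columns, with each column left out, and with control replicate 1 as the only control. Circles are higher and squares lower in Drosha-deleted cultures. The fit to all columns called 29 and 12, and leaving out control replicate 1 raised these to 4224 and 3527.

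The called features that rose most held a microRNA gene or lay beside one. Of the 29 higher features, 13 held a microRNA gene or lay beside one, against 5.66% of all features tested, and of the 12 lower features 1 did. For a named gene this means that its span holds a microRNA gene on the same strand in the RefSeq table. For an unnamed region or transcript of the array it means that a microRNA gene has the same neighbouring protein-coding genes, a rule chosen after values were seen. The array positions are on mm9 and the RefSeq positions on GRCm38.p6, so overlap of a probe with a hairpin was not tested. The 13 include Dgcr8, whose span holds Mir1306, and both regions beside Mir30b and Mir30d, so they are not 13 separate loci. Hairpins of some of these loci are shown because they are the stretches that Drosha cuts. They are given as in RefSeq (GRCm38.p6, 5′ to 3′), with the listed mature arms in capitals:
Mir23b: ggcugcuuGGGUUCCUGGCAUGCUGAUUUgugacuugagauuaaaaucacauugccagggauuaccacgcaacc
Mir27b: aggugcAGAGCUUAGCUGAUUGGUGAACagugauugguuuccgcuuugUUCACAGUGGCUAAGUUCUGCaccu
Mir24-1: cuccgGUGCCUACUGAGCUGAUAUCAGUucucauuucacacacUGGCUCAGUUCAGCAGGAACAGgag
Mir101a: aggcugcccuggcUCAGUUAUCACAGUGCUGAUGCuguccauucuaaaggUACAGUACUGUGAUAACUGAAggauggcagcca
Mir29a: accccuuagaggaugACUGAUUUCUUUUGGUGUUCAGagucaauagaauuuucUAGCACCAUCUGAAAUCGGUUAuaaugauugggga
Mir29b-1: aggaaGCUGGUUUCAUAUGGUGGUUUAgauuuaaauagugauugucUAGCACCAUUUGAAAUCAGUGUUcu
Mir16-1: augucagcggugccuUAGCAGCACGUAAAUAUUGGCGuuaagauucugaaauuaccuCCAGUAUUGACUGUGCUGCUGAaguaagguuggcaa
Mir22: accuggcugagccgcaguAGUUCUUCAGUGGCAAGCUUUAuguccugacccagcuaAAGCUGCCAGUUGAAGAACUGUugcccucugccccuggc

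Some regions that rose each lie beside microRNAs with the same seed, the stretch from base 2 to base 8 that pairs with target messages. The mature sequences below show these families, with the seed in capitals. miR-15a and miR-16 share the seed AGCAGCA with miR-322, whose locus on chromosome X missed the threshold against controls, as described below. miR-29a and miR-29b share AGCACCA, and miR-221 and miR-222 share GCUACAU:
miR-15a-5p: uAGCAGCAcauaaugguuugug
miR-16-5p: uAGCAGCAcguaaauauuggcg
miR-322-5p: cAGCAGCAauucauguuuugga
miR-29a-3p: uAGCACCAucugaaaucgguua
miR-29b-3p: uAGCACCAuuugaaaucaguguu
miR-221-3p: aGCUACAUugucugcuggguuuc
miR-222-3p: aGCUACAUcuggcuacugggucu

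Drosha itself served as the check of the labels. Its level was 12.04, 11.88 and 11.85 in the 3 controls and 8.81, 8.92 and 9.32 in the Drosha-deleted cultures, with no overlap. The difference was -2.91 (SE 0.15, adjusted p = 0.000152, limma), or 7.52-fold lower, and the probe at chr15:12864767-12864826 (mm9) stayed well above background on all 3 Drosha-deleted arrays. The neighbouring probe at chr15:12864964-12865023 gave 11.60, 11.29 and 11.35 in controls and 8.55, 8.61 and 9.05 in Drosha-deleted cultures. Both probes thus separated the groups, and Dicer-deleted cultures (11.99, 12.16 and 11.94 at the former) lay with the controls. Which exons were removed is not given in the sources used here, so the remaining signal gives no share of undeleted cells.

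Dicer1, the enzyme of the cytoplasmic step, did not pass the test. It was 9.92, 10.50 and 10.44 in controls and 10.53, 10.00 and 10.80 in Drosha-deleted cultures, which overlap (difference 0.16, SE 0.22, adjusted p = 0.671, limma). In the Dicer-deleted cultures it was 8.99, 9.18 and 8.97.

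**Figure D2:**
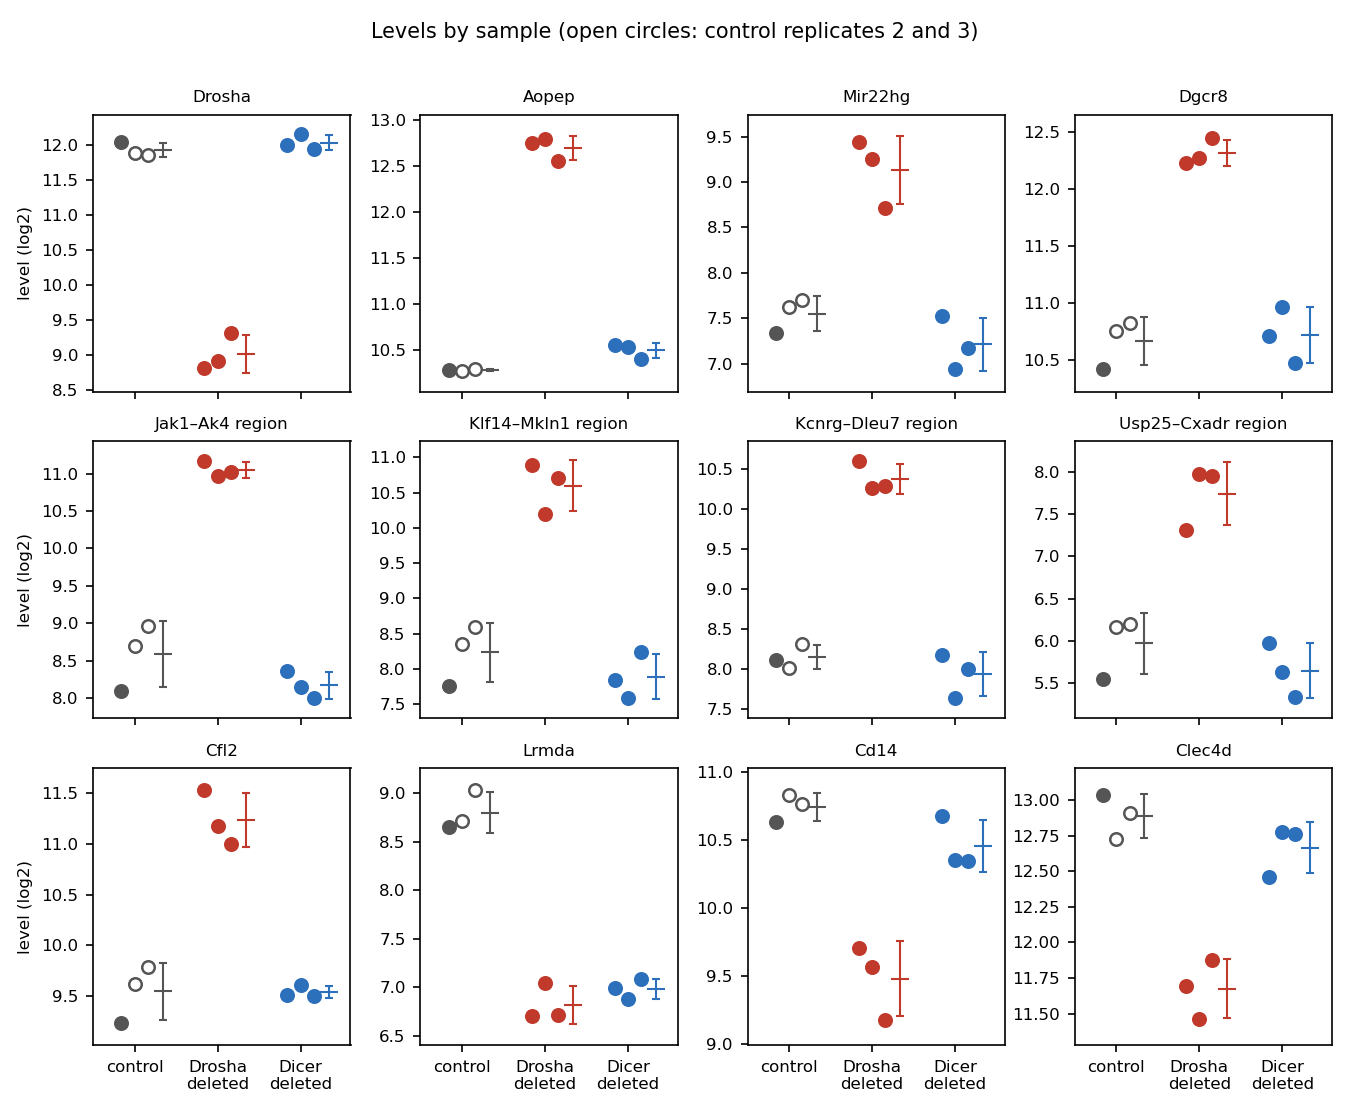
Log2 level of 12 features in each control, Drosha-deleted and Dicer-deleted culture, 1 circle per sample, with the mean and SD (n = 3) beside each group. Open circles are control replicates 2 and 3. Each vertical axis has its own range. Aopep lay at 10.28 to 10.29 in controls and at 12.55 to 12.80 in Drosha-deleted cultures, and Drosha fell from at least 11.85 to at most 9.32.

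Among features that held or lay beside a microRNA gene, Aopep gave the tightest separation. Aopep encodes an aminopeptidase, and its introns hold the miR-23b, miR-27b and miR-24-1 hairpins shown above. Its level was 10.29, 10.28 and 10.29 in controls and 12.75, 12.80 and 12.55 in Drosha-deleted cultures. The difference was 2.42 (SE 0.11, adjusted p = 0.000109, limma), or 5.34-fold. Dicer-deleted cultures (10.55, 10.54 and 10.41) lay near the controls, and Drosha-deleted exceeded them by 2.20 (adjusted p = 0.000123, limma). The rise therefore differed between the deletions.

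A further Aopep probe did not share this rise. The pair of probes is shown because it marks which stretch of the Aopep transcript the rise was measured in:
Aopep probe that rose (chr13:63400842-63400901, mm9): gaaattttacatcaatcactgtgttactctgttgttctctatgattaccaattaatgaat
Aopep probe that did not rise (chr13:63403319-63403378, mm9): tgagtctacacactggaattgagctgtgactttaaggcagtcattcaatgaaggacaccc
The latter averaged 11.16 in controls and 10.75 in Drosha-deleted cultures, a difference of -0.41. Its values were 11.20, 11.15 and 11.13 in controls and 10.84, 10.88 and 10.53 in Drosha-deleted cultures. When all kept probes of a gene were averaged, the Aopep difference was 1.01 and still passed (adjusted p = 0.0182, limma). That mean joins probes that moved in opposite directions, so it does not describe the whole transcript.

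The region between Jak1 and Ak4 (chr4:101010948-101032148, mm9, reverse strand), beside Mir101a, rose by the widest margin. It was 8.10, 8.70 and 8.97 in controls and 11.17, 10.96 and 11.01 in Drosha-deleted cultures. The gap between the groups was wider than the spread within either (difference 2.46, SE 0.21, adjusted p = 0.00478, limma), and 5.50-fold. Control 1 was the lowest of the 3 controls and the Dicer-deleted cultures were as low, at 8.36, 8.14 and 8.005. Against the latter the difference was 2.88 (adjusted p = 0.00156, limma). The probe read at this region is:
Jak1–Ak4 region probe (chr4:101019147-101019206, mm9): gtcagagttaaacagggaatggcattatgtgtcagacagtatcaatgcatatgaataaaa

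The region between Kcnrg and Dleu7 (chr14:62254361-62301162, mm9, reverse strand) lies beside Mir15a and Mir16-1, microRNAs known to restrain the cell cycle. Its level was 8.12, 8.02 and 8.31 in controls and 10.60, 10.26 and 10.29 in Drosha-deleted cultures. The groups stood apart by 2.23 (SE 0.17, adjusted p = 0.00207, limma), 4.71-fold, and the difference from Dicer-deleted cultures was 2.45 (adjusted p = 0.00127, limma). The probe is:
Kcnrg–Dleu7 region probe (chr14:62262197-62262256, mm9): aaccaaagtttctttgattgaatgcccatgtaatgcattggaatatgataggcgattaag
Dleu2, the named noncoding host of the same microRNAs, was 8.10, 7.82 and 8.002 in controls and 9.10, 8.90 and 8.57 in Drosha-deleted cultures. These did not overlap, but the difference of 0.88 missed the threshold (SE 0.18, adjusted p = 0.0779, limma). The Dleu2 probe (chr14:62301101-62301160, mm9) lies within the span of the Kcnrg–Dleu7 region, so the probes do not read separate loci.

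The region between Klf14 and Mkln1 (chr6:31007184-31007725, mm9, reverse strand), beside Mir29a and Mir29b-1, was 7.76, 8.35 and 8.59 in controls. In Drosha-deleted cultures it was 10.89, 10.19 and 10.71, above every control (difference 2.37, SE 0.27, adjusted p = 0.0157, limma). It exceeded the Dicer-deleted cultures by 2.71 (adjusted p = 0.0145, limma). The call held in 7 of 9 fits with a column left out. The miR-29 family is known for its collagen and DNA methyltransferase targets.

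On chromosome 15, both array regions between Zfat and Khdrbs3, beside Mir30b and Mir30d, rose. The one at chr15:68170864-68171544 was 7.35, 7.27 and 7.25 in controls and 9.78, 9.33 and 9.25 in Drosha-deleted cultures (difference 2.16, SE 0.23, adjusted p = 0.0125, limma). The one at chr15:68172597-68194740 was 7.18, 6.11 and 6.54 in controls and 8.60, 8.38 and 8.12 in Drosha-deleted cultures (difference 1.75, SE 0.25, adjusted p = 0.0457, limma). The groups separated at both, with tight controls at the former and spread controls at the latter. Leaving out 1 column kept the former call in 5 of 9 fits and the latter in 1.

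Mir22hg, the noncoding host of miR-22, was 7.33, 7.62 and 7.70 in controls and 9.44, 9.26 and 8.72 in Drosha-deleted cultures. It rose by 1.59 (SE 0.22, adjusted p = 0.0391, limma), 3.00-fold, and was higher than in Dicer-deleted cultures by 1.92 (adjusted p = 0.0271, limma). The transcript 4833445I07Rik, beside Mir191 and Mir425, was 8.91, 9.66 and 9.59 in controls and 11.05, 11.62 and 11.41 in Drosha-deleted cultures (difference 1.98, SE 0.27, adjusted p = 0.0360, limma). Neither overlapped the controls, and each kept its call in 2 of 9 fits with a column left out.

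The region between Usp25 and Cxadr (chr16:77670599-77691642, mm9, forward strand) lies beside Mir99a, Mirlet7c-1 and Mir125b-2, a cluster known for its activity in stem cells and megakaryocytes. It was well above background on all 3 Drosha-deleted arrays (7.31, 7.98 and 7.95) and on no control or Dicer-deleted array counted. Its measured values were 5.55, 6.16 and 6.20 in controls, so it was at least 3.43-fold higher, a bound because the controls were not well above background (adjusted p = 0.0450, limma). It was kept for testing only because the Drosha-deleted arrays were well above background. Its p and its place in the counts are therefore not independent of its high level there. Mir99ahg, a listed noncoding host on chromosome 16, was kept in the same way. It was 5.85, 6.58 and 5.98 in controls and 6.18, 6.88 and 6.76 in Drosha-deleted cultures. These groups overlapped (difference 0.47, SE 0.24, adjusted p = 0.231, limma). The region between Dipk2b and Chst7 (chrX:18734106-18744367, mm9, reverse strand), beside Mir221 and Mir222, rose from 8.88, 8.76 and 9.23 to 10.56, 9.98 and 10.74 (difference 1.47, SE 0.22, adjusted p = 0.0477, limma). Each called region kept its call in few of the 9 fits with a column left out, 2 for Usp25–Cxadr and 1 for Dipk2b–Chst7.

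The locus of the miR-17 cluster, known for its role in blood cell growth, came close to the threshold without passing it. Mir17hg, the host transcript, was 10.29, 11.23 and 11.40 in controls and 12.53, 12.26 and 12.87 in Drosha-deleted cultures (difference 1.58, SE 0.28, adjusted p = 0.0602, limma). The array region between Slitrk5 and Gpc5 that shares this locus (chr14:115443612-115445950, mm9) was 10.05, 10.86 and 11.09 in controls and 12.20, 12.12 and 12.63 in Drosha-deleted cultures (adjusted p = 0.0589, limma). Its probe has the same position as that of Mir17hg (chr14:115445828-115445887, mm9), so both read the same stretch and are not separate evidence. Control 1 was the lowest control in both, and against control 1 alone both passed, at differences of 2.26 (adjusted p = 0.0300, limma) and 2.27 (adjusted p = 0.0349, limma), with a single control assumed to vary like the other groups.

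The same held for 2610318N02Rik, beside Mir130b and Mir301b, which was 11.51, 12.48 and 12.30 in controls and 13.85, 13.73 and 13.53 in Drosha-deleted cultures (adjusted p = 0.0520, limma). Against control 1 alone its difference was 2.20 (adjusted p = 0.0201, limma). Of its 4 kept probes the others differed by 1.68, 1.03 and, at chr16:17123606-17123665 (mm9), -0.39. On chromosome X, the region between Hprt and Plac1 at chrX:50407969-50410370 (mm9), beside Mir322 and Mir503, was 6.16, 6.48 and 6.53 in controls and 7.66, 7.26 and 7.14 in Drosha-deleted cultures. It missed the threshold against controls (difference 0.96, SE 0.17, adjusted p = 0.0619, limma) and passed it against Dicer-deleted cultures (1.38, adjusted p = 0.0390, limma). Another array region there, at chrX:50400250-50410825 (mm9), passed neither. It differed by 1.09 from controls (SE 0.20, adjusted p = 0.0652, limma) and by 1.03 from Dicer-deleted cultures (adjusted p = 0.209, limma).

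Most of these loci were also higher than in the Dicer-deleted cultures. Of the 29 features that rose, 10 were also higher than in Dicer-deleted cultures, of which 9 held or lay beside a microRNA gene and the other was Cfl2. Of the 13 higher features that held or lay beside a microRNA gene, 4 did not pass against Dicer-deleted cultures. The Dipk2b–Chst7 region differed from them by 1.61 (adjusted p = 0.0609, limma), the Zfat–Khdrbs3 region at chr15:68172597-68194740 by 1.36 (adjusted p = 0.209, limma), the Rtl1–Dio3 region by 0.18 (adjusted p = 0.999, limma) and Gm10071 by -0.06 (adjusted p = 0.999, limma). Over all features, 12 were higher in Drosha-deleted than in Dicer-deleted cultures (0.0521%) and 1, Drosha, was lower (0.00434%). Both deletions were compared with the same 3 controls, so their differences from control are set side by side and not correlated.

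**Figure D3:**
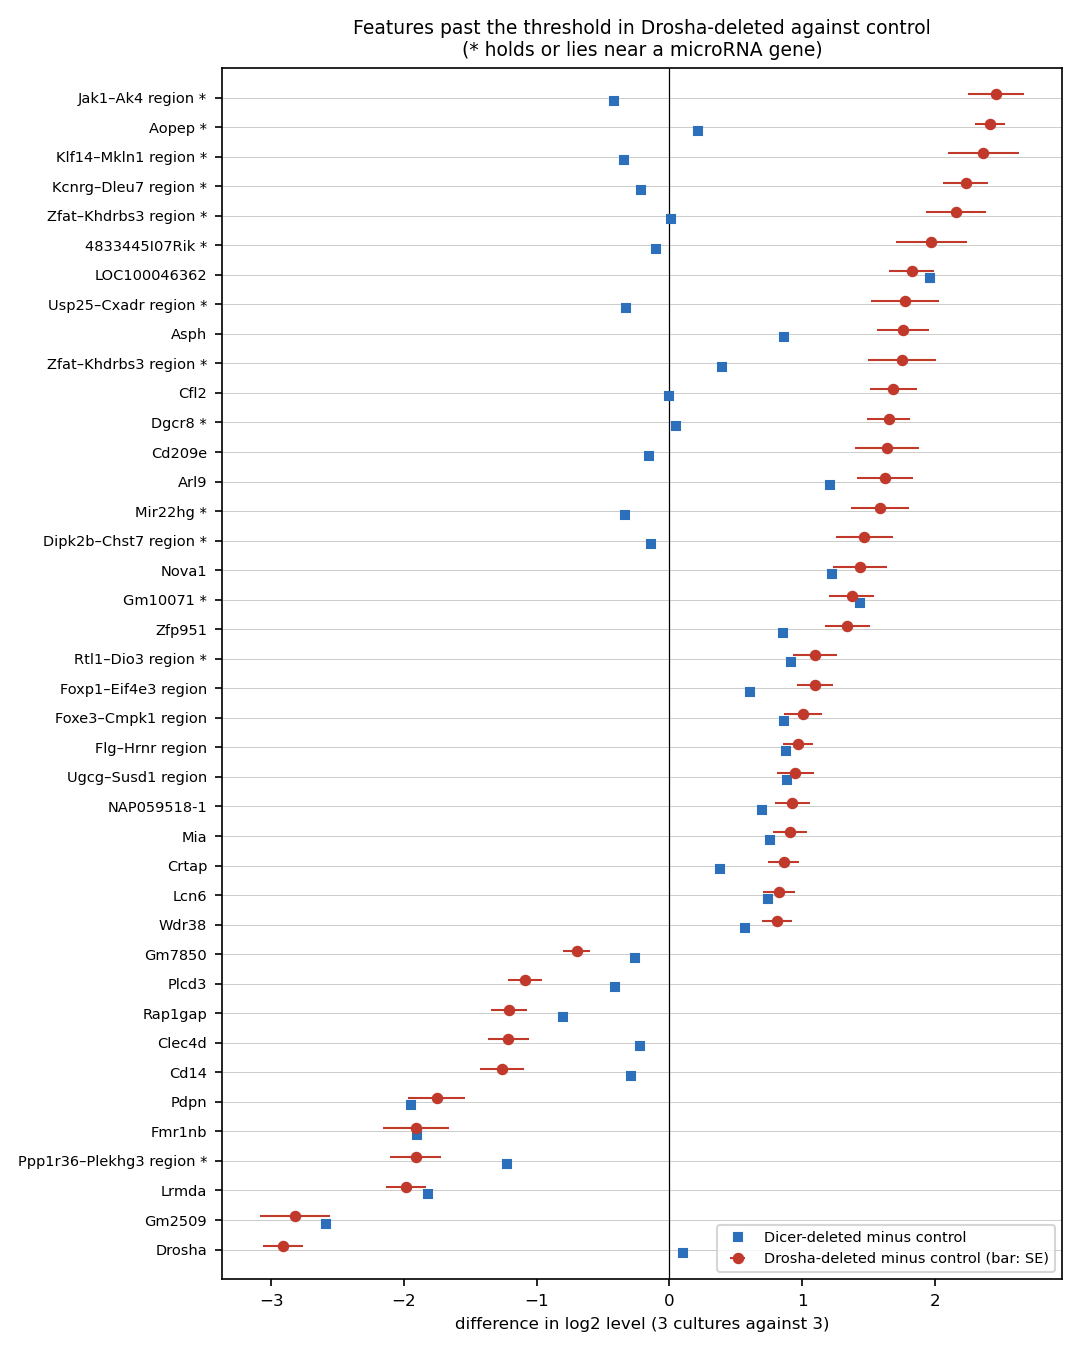
Difference from the 3 controls in log2 level for 40 of the 41 features that passed the threshold in Drosha-deleted cultures. Circles are Drosha-deleted minus control with the SE, squares Dicer-deleted minus control, and an asterisk marks a feature that holds or lies near a microRNA gene. The Jak1–Ak4 region stood at 2.46 for Drosha and -0.42 for Dicer, whereas Lrmda stood at -1.98 and -1.82.

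Not every microRNA host rose. Of 40 protein-coding genes listed for their intronic microRNAs, 34 were tested and 1, Aopep, was called higher (0.126% of all features). Of the 34, 6 were higher and 5 lower at an unadjusted p under 0.05 (15.4% and 11.5% of all features), and their median was -0.04 (all features -0.0024). Smc4, host of miR-15b and miR-16-2 and a subunit of condensin, was 13.92, 13.76 and 13.68 in controls and 14.34, 14.16 and 14.35 in Drosha-deleted cultures (adjusted p = 0.103, limma). Mcm7, host of the miR-106b cluster and a replication helicase subunit, was 14.81, 14.95 and 14.85 against 15.10, 14.76 and 15.18, which overlap. The lists of this report are described by counts, and no test of a list as a whole was made.

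Of 23 listed noncoding hosts, 8 were tested. Their median was 0.47 (all features -0.0024, range over 21 alternatives 0.34 to 0.96), and 7 of 8 were positive. Mir22hg was the 1 called, where 0.126% of all features were called higher. At an unadjusted p under 0.05, 3 were higher and 0 lower (15.4% and 11.5% of all features). Against control 1 alone the median was 0.41, with 5 above it and 3 below. The mean level of the 8 was 7.55, 7.50 and 7.62 in controls and 8.28, 8.18 and 8.15 in Drosha-deleted cultures, against 7.44, 7.26 and 7.59 in Dicer-deleted cultures. Mir100hg, host of miR-100 and miR-125b-1, was 6.62, 6.39 and 6.26 in controls and 6.76, 6.41 and 6.60 in Drosha-deleted cultures. H19, the imprinted host of miR-675, was 6.97, 5.78 and 6.42 against 7.18, 6.94 and 6.49, so the groups overlapped for both.

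Dgcr8, the partner of Drosha, rose where Drosha was deleted. It was 10.42, 10.75 and 10.82 in controls and 12.23, 12.27 and 12.45 in Drosha-deleted cultures, with no overlap. The difference was 1.65 (SE 0.16, adjusted p = 0.0109, limma), or 3.15-fold. In Dicer-deleted cultures it was 10.71, 10.97 and 10.48, and the difference between the deletions was 1.60 (adjusted p = 0.0165, limma). The call against controls held in 6 of 9 fits with a column left out.

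Of 5 messages that published work reports as cut by Drosha, 3 were tested. Dgcr8 was the 1 called, where 0.126% of all features were called higher. Myl9, a regulatory light chain of myosin II, was probably put on that list from these samples, so it is not independent evidence. It was 7.84, 8.76 and 8.03 in controls, 8.64, 8.99 and 9.60 in Drosha-deleted cultures and 7.12, 6.85 and 6.99 in Dicer-deleted cultures. Control 2 overlapped the Drosha-deleted group (difference 0.87, SE 0.29, adjusted p = 0.122, limma), and the gap of 2.09 to the Dicer-deleted cultures did not pass (adjusted p = 0.0622, limma). Nfib, a transcription factor gene, was 5.98, 6.02 and 6.30 in controls and 5.89, 6.001 and 6.02 in Drosha-deleted cultures.

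The other 17 tested members of the processing machinery did not pass, apart from Drosha and Dgcr8 among the 19. Tarbp2, a double-stranded RNA-binding partner of Dicer, was 13.001, 12.90 and 12.84 in controls and 13.55, 13.45 and 13.31 in Drosha-deleted cultures (adjusted p = 0.0814, limma). Ddx17, a helicase of the Drosha complex, was 15.05, 15.27 and 15.17 against 14.73, 14.46 and 15.01 (adjusted p = 0.129, limma). The 17 Argonaute and TNRC6 complex genes had a median of -0.02 and no call, with 2 higher at an unadjusted p under 0.05. Over all features, 15.4% were higher and 11.5% lower at that p. The 18 tested let-7 targets had a median of -0.13 with 2 higher and 3 lower at that p, and the 20 targets of miR-155, miR-146a, miR-223 and the miR-17 cluster had -0.14 with 2 higher and 1 lower. Neither had a call, and both medians turned positive against control 1 alone, at 0.10 for each. Scanner values of all 9 arrays, which shifted the median of all features to 0.28, also turned them, to 0.27 and 0.29.

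Several higher features had no microRNA gene beside them. Cfl2, a cofilin that severs actin filaments, was 9.24, 9.62 and 9.79 in controls, 11.53, 11.18 and 11.003 in Drosha-deleted cultures and 9.51, 9.61 and 9.51 in Dicer-deleted cultures. The rise of 1.69 (SE 0.18, adjusted p = 0.0125, limma) was matched by a difference of 1.69 between the deletions (adjusted p = 0.0170, limma). Its other probe, at chr12:55960377-55960436 (mm9), averaged 8.44 in controls and 9.12 in Drosha-deleted cultures. With both probes averaged the call was lost (difference 1.19, adjusted p = 0.0659, limma). Of the 25 actin and myosin II genes listed, Cfl2 was the 1 called, where 0.126% of all features were called higher. The median of the 25 was 0.02.

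Asph, an aspartate hydroxylase of the endoplasmic reticulum, was 9.42, 9.50 and 9.80 in controls and 11.71, 11.30 and 10.999 in Drosha-deleted cultures (difference 1.76, SE 0.19, adjusted p = 0.0156, limma). Dicer-deleted cultures lay between, at 10.29, 10.40 and 10.62. The other kept Asph probes differed. At chr4:9379226-9379285 (mm9) the means were 8.71 in controls and 8.405 in Drosha-deleted cultures, and at chr4:9563054-9563113 (mm9) the groups did not overlap, with 7.08, 7.22 and 7.47 in controls and 7.79, 7.76 and 7.82 in Drosha-deleted cultures. With the kept probes averaged the call was lost (difference 0.66, adjusted p = 0.0870, limma).

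Cd209e, a C-type lectin gene, was well above background on the 3 Drosha-deleted arrays (6.90, 7.83 and 7.16) and on none of the others counted, at least 2.98-fold higher (adjusted p = 0.0477, limma). Its controls measured 5.30, 5.78 and 5.87. Cd209e was kept for testing only through the Drosha-deleted arrays, where it was high, so its p is not independent of that level. Crtap, a partner in collagen hydroxylation chosen after its values were seen, was 12.73, 12.54 and 12.63 in controls and 13.61, 13.51 and 13.36 in Drosha-deleted cultures (adjusted p = 0.0360, limma).

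For other higher features the difference between the deletions did not pass. LOC100046362 was 6.18, 6.66 and 6.30 in controls and 8.29, 7.95 and 8.37 in Drosha-deleted cultures (difference 1.83, SE 0.17, adjusted p = 0.00707, limma). It was 8.37, 8.46 and 8.20 in Dicer-deleted cultures, and of the 29 it was the 1 also called in Dicer-deleted against control. Arl9, a small GTPase of the ARF family, was 8.33, 7.65 and 7.87 in controls, 9.61, 9.53 and 9.59 in Drosha-deleted and 9.25, 9.44 and 8.80 in Dicer-deleted cultures, which lay between (Drosha-deleted minus Dicer-deleted 0.41, adjusted p = 0.950, limma). Nova1, a splicing factor chosen here after its values were seen, was 8.05, 7.44 and 7.36, then 9.08, 9.11 and 8.97, then 8.96, 9.02 and 8.55 in the same order. In Arl9 and Nova1 controls 2 and 3 were the lowest samples.

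The remaining higher features, chosen after their values were seen, did not differ between the deletions past the threshold. They were NAP059518-1, Gm10071, Zfp951, Mia, Lcn6, Wdr38 and the regions between Rtl1 and Dio3, Foxp1 and Eif4e3, Foxe3 and Cmpk1, Flg and Hrnr, and Ugcg and Susd1. Lcn6 was 7.43, 7.29 and 7.32 in controls and 8.07, 8.10 and 8.35 in Drosha-deleted cultures, with 8.14, 8.14 and 7.997 in Dicer-deleted cultures. Wdr38 was 7.33, 7.08 and 7.29, then 8.06, 8.06 and 8.01, then 7.76, 7.86 and 7.78. Their differences from control, 0.83 for Lcn6 (SE 0.12, adjusted p = 0.0450, limma) and 0.81 for Wdr38 (SE 0.11, adjusted p = 0.0363, limma), each passed in 1 of 9 fits with a column left out. The Rtl1–Dio3 region lies in a large imprinted microRNA cluster. NAP059518-1 and the Ugcg–Susd1 region were each well above background on 1 of the 2 control arrays counted. Both were kept for testing only through the Drosha-deleted and Dicer-deleted arrays, where they were high. Their calls are therefore not independent of that level.

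Long intergenic noncoding regions as a class moved with the choice of controls. The median of 3190 such regions was 0.26 over the 3 controls, 0.03 against control 1 alone and 0.03 against Dicer-deleted cultures, while for 14057 protein-coding genes it was -0.04 over the 3 controls. Regions near a microRNA gene (403) had a median of 0.33 and 8 higher calls, 1.99% of them, against 0.26 and 4 calls, 0.144%, for the 2787 other regions. Against control 1 alone these medians were 0.06 and 0.03. All 8 called regions near a microRNA gene lay above control 1.

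**Figure D4:**
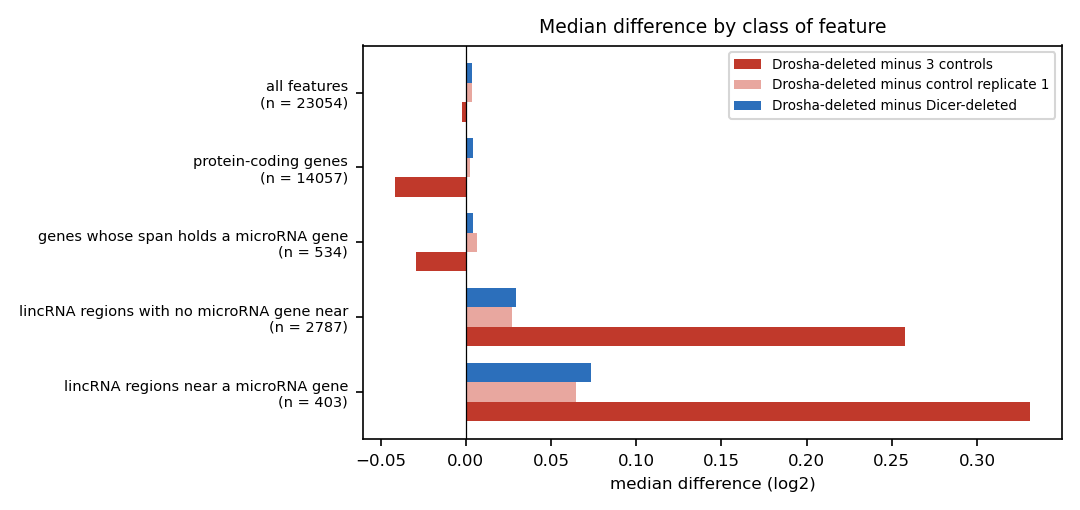
Median difference in log2 level by class of feature, for Drosha-deleted cultures minus the 3 controls, minus control replicate 1, and minus Dicer-deleted cultures. Regions with no microRNA gene near stood at 0.26, 0.03 and 0.03.

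Among features that fell, Lrmda kept its call, like Drosha, under all 21 alternatives run. Lrmda is a leucine-rich repeat gene known from pigment cells. It was 8.65, 8.72 and 9.04 in controls and 6.70, 7.05 and 6.72 in Drosha-deleted cultures, 3.95-fold lower (difference -1.98, SE 0.15, adjusted p = 0.00207, limma). It was as low in Dicer-deleted cultures, at 6.999, 6.88 and 7.08, and the difference between the deletions of -0.16 did not pass (adjusted p = 0.999, limma). In Dicer-deleted against control 4 features were called lower (0.0174%) and 1 higher (0.00434%). Of the 12 that fell here, Lrmda, Pdpn and Gm2509 were the 3 among those 4.

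Pdpn, the mucin-like ligand podoplanin, was 7.83, 8.44 and 7.93 in controls, 6.24, 6.25 and 6.44 in Drosha-deleted and 6.38, 5.71 and 6.28 in Dicer-deleted cultures. The fall of 1.75 passed (SE 0.22, adjusted p = 0.0231, limma), but at its other probe no array was well above background. Fmr1nb was 7.96, 7.78 and 6.91 in controls and not well above background in Drosha-deleted cultures (5.64, 5.71 and 5.57), at least 3.73-fold lower (adjusted p = 0.0287, limma). It was kept for testing only through the control arrays, where it was high, so its p is not independent of that level. Gm2509 was 14.43 and 14.22 in controls 2 and 3, with the control 1 spot left out as an outlier, and 12.05, 11.20 and 11.25 in Drosha-deleted cultures (adjusted p = 0.0125, limma). In each of these the Dicer-deleted values lay with the Drosha-deleted ones, for Gm2509 at 11.80, 11.53 and 11.87.

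The region between Ppp1r36 and Plekhg3 (chr12:77550684-77551505, mm9, forward strand), beside Mir5135, was the 1 lower feature near a microRNA gene. It was 7.23, 7.48 and 7.998 in controls and not well above background in Drosha-deleted cultures (5.64, 5.79 and 5.55), at least 3.71-fold lower (adjusted p = 0.0110, limma). Rap1gap, which switches off the small GTPase RAP1, was 9.41, 9.38 and 9.47 in controls and 8.41, 8.08 and 8.14 in Drosha-deleted cultures (difference -1.21, SE 0.14, adjusted p = 0.0157, limma). Neither overlapped the controls. Plcd3, a phospholipase C, fell by 1.09 (SE 0.13, adjusted p = 0.0205, limma) and Gm7850 by 0.70 (SE 0.10, adjusted p = 0.0477, limma).

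Some monocyte genes fell in the Drosha-deleted cultures. Cd14, the monocyte co-receptor for endotoxin, was 10.63, 10.83 and 10.77 in controls and 9.71, 9.57 and 9.18 in Drosha-deleted cultures (difference -1.26, SE 0.16, adjusted p = 0.0287, limma). Clec4d, a myeloid C-type lectin, was 13.03, 12.72 and 12.91 against 11.69, 11.46 and 11.88 (difference -1.21, SE 0.15, adjusted p = 0.0276, limma). Neither overlapped the controls, and control 1 lay with the other controls in both. Dicer-deleted cultures held Cd14 at 10.68, 10.35 and 10.35 and Clec4d at 12.46, 12.78 and 12.76, but the differences between the deletions did not pass (adjusted p = 0.150 for Cd14 and 0.112 for Clec4d, limma).

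Of 27 listed monocyte and macrophage genes 26 were tested. Cd14 and Clec4d were the 2 called, both lower, where 0.0521% of all features were called lower. At an unadjusted p under 0.05, 10 were lower and 2 higher, against 11.5% and 15.4% of all features. The median was -0.61 (all features -0.0024), 23 of 26 were negative, and against control 1 alone the median was -0.77. The mean level of the 26 was 10.93, 10.44 and 10.78 in controls and 10.11, 10.18 and 10.04 in Drosha-deleted cultures, without overlap, and 10.50, 9.66 and 10.77 in Dicer-deleted cultures, which spread across both. In bulk RNA, fewer cells of a type and less RNA per cell cannot be told apart.

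Single members show the pattern without passing. Fcgr1, the high-affinity IgG receptor, was 7.87, 7.85 and 8.03 in controls and 6.89, 6.77 and 7.32 in Drosha-deleted cultures (adjusted p = 0.0594, limma). Mpeg1, a pore-forming protein of macrophages, was 12.43, 12.47 and 13.08 against 10.97, 11.41 and 11.71 (adjusted p = 0.103, limma). Cx3cr1, the fractalkine receptor, was 9.30, 9.02 and 9.43 against 6.92, 7.64 and 8.54. In these 3 genes the groups did not overlap, as in 10.5% of all features in this direction. Itgam, an integrin of myeloid cells, was on the other side, at 14.70, 13.86 and 13.83 in controls and 14.73, 14.52 and 15.30 in Drosha-deleted cultures, where control 1 overlapped (adjusted p = 0.143, limma).

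Interferon-stimulated genes were lower in median, with no call. Of 22 tested, 10 were lower and none higher at an unadjusted p under 0.05 in limma (11.5% and 15.4% of all features), and 0 passed the threshold. Their median was -0.40, 21 of 22 were negative, and the mean level was 9.56, 9.15 and 9.03 in controls and 8.77, 8.78 and 8.94 in Drosha-deleted cultures. Mx1, an antiviral GTPase, was 6.52, 6.40 and 6.45 against 5.91, 5.88 and 5.98 (adjusted p = 0.114, limma). Ifit1 was 7.35, 7.196 and 6.84 against 6.38, 6.09 and 6.72 (adjusted p = 0.121, limma). Dicer-deleted cultures were as low as a list, with a mean level of 8.95, 8.76 and 8.66 and a median difference from control of -0.44. Oas2, an antiviral sensor, was 10.26, 8.82 and 7.89 in controls, so the controls themselves ranged widely.

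Cell cycle genes were slightly higher in median, with no call. Of 25, 9 were higher and none lower at an unadjusted p under 0.05 in limma (15.4% and 11.5% of all features), 0 passed, and the median was 0.20, falling to 0.07 against control 1 alone. Foxm1, a transcription factor of mitotic genes, was 10.52, 10.52 and 10.50 in controls and 10.81, 10.91 and 10.88 in Drosha-deleted cultures. Cdk1, the mitotic kinase, was 12.84, 12.10 and 12.23 against 13.17, 13.08 and 12.99, and Ccne2 7.05, 5.56 and 5.45 against 7.48, 7.32 and 7.49. For Cdk1 and Ccne2 controls 2 and 3 were lower than control 1, and the step from control 1 was 0.24 and 0.38. Ccne2 was well above background on 1 of the 2 control arrays counted. It was kept for testing only through the Drosha-deleted and Dicer-deleted arrays, where it was high, so its p is not independent of that level.

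Neutrophil granule genes changed sign with the choice of controls. Their median was 0.33 over the 3 controls and -0.18 against control 1 alone, and their mean level was 14.52, 13.22 and 13.67 in controls and 14.35, 14.24 and 13.55 in Drosha-deleted cultures, which overlap. Stem cell genes had a median of -0.12 (0.04 against control 1 alone), with 1 higher and 6 lower of 27 at an unadjusted p under 0.05 (15.4% and 11.5% of all features) and no call. Flt3, the receptor of early multipotent progenitors, was 10.68, 10.97 and 10.80 in controls and 11.46, 11.37 and 11.81 in Drosha-deleted cultures (adjusted p = 0.0911, limma). Procr, a stem cell surface receptor, was 9.93, 10.29 and 9.83 against 9.29, 8.999 and 9.73. Among 12 tested eosinophil genes the median was 0.08, 5 were negative and none passed. The 4 that were higher at that p (15.4% of all features) were Ear1, Ear2, Ear6 and Ear10, members of the same RNase family. The eosinophil markers Epx, Prg2 and Il5ra differed by 0.02, -0.10 and -0.10. Ear2, an eosinophil RNase of a family of near-identical copies whose probes may share signal, was 9.41, 10.45 and 8.93 in controls, 11.50, 11.89 and 11.56 in Drosha-deleted and 9.14, 6.80 and 10.31 in Dicer-deleted cultures (adjusted p = 0.140, limma). Megakaryocyte genes had a median of -0.18 in Drosha-deleted and -0.68 in Dicer-deleted cultures. Scanner values of all 9 arrays turned the Drosha-deleted megakaryocyte median to 0.15 and the stem cell median to 0.23, whereas the monocyte and interferon medians stayed negative and the cell cycle median positive in all 21 alternatives.

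**Figure D5:**
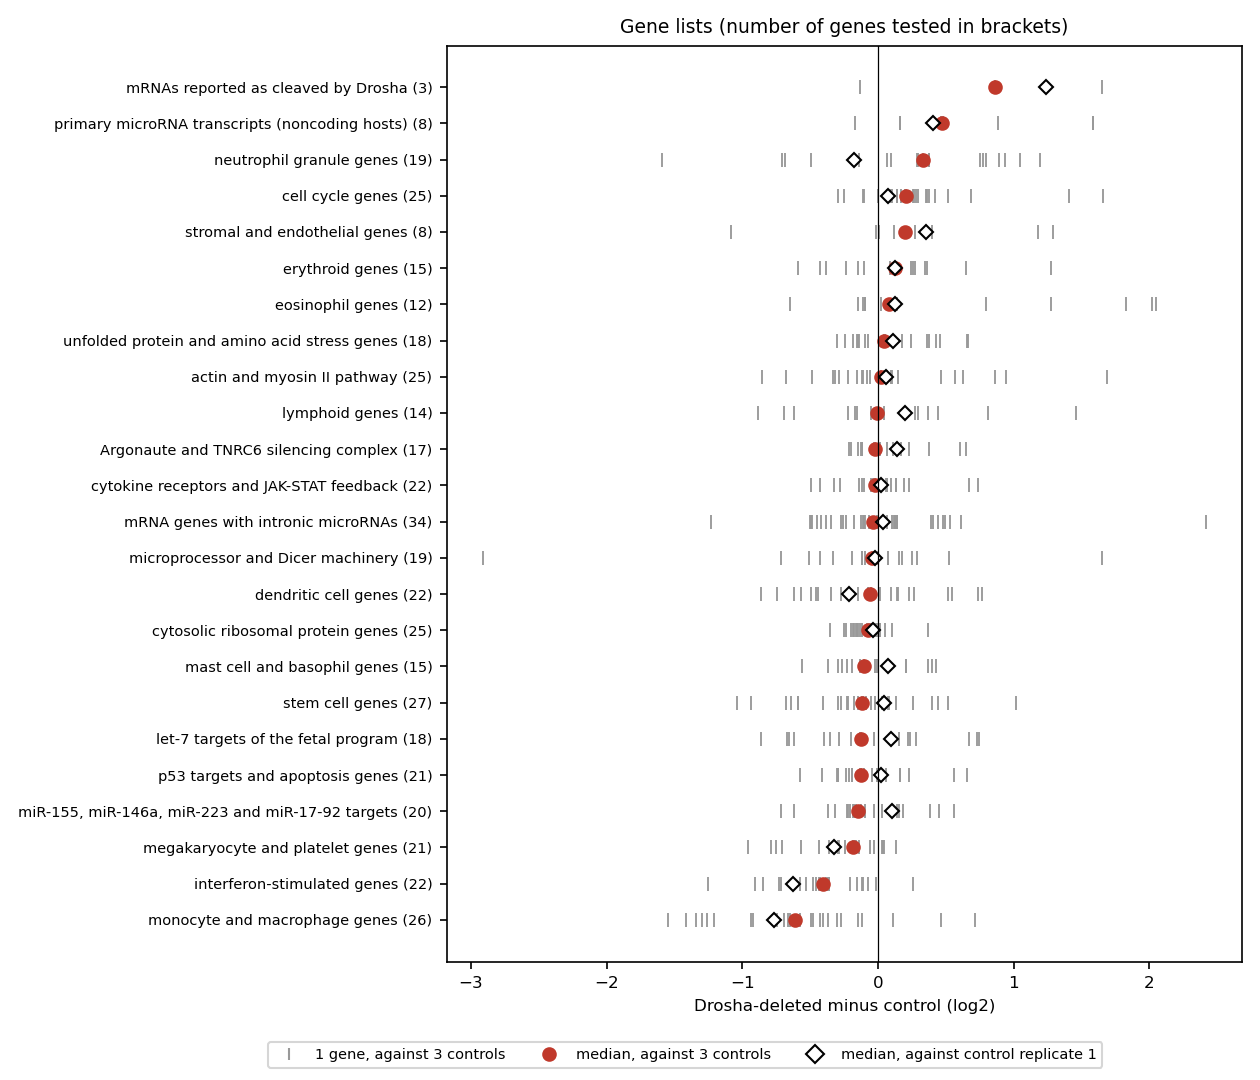
Drosha-deleted minus control in log2 level for the tested genes of 24 lists. Each tick is a gene against the 3 controls, the circle the list's median, and the diamond the median against control replicate 1 alone. Monocyte and macrophage genes (-0.61 and -0.77) and interferon-stimulated genes (-0.40 and -0.63) lay lowest with both sets of controls, and the neutrophil granule median changed sign (0.33 and -0.18).

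The labelled cell type was checked against its markers. Kit (11.90 to 13.06 in Drosha-deleted and 12.01 to 12.50 in control cultures), Ly6a (11.16 to 11.93 and 10.11 to 12.27) and Cd34 (14.65 to 15.48 and 15.00 to 15.43) were well above background on all 8 arrays whose flags were used. Markers of maturing cells were present too, with the neutrophil gene Mpo at 17.88 to 18.28 and 17.59 to 17.97 and the megakaryocyte gene Pf4 at 18.10 to 18.33 and 18.39 to 18.43. The 5 monocyte markers were all lower in mean: Csf1r ranged from 13.23 to 13.84 in Drosha-deleted and 13.75 to 14.34 in control cultures, and Ccr2 from 9.53 to 9.87 and 9.65 to 10.34. Their part in the other differences was not tested.

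Markers of lymphoid and stromal cells were mostly absent. Pax5, Cd8a, Bcl11b, Ncr1, Cdh5 and Pdgfra were well above background on none of the 8 arrays. Cd4 and Cd3e were exceptions among T cell markers, with Cd4 at 12.24, 10.43 and 10.702 in controls and 12.63, 12.59 and 12.53 in Drosha-deleted cultures while Cd3d did not pass the background filter. The Cd4 step from control 1 was 0.34.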

How the data were processed

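Total RNA of 9 cultures was hybridised to 1-colour Agilent arrays, read with Feature Extraction 10.7.3.1 per the file headers (design on mm9). The series values are log2 and deposited by the authors after quantile normalization, and limma is named in the submitters' processing notes. Scanner intensity files deposited by the authors gave background flags and the alternatives. Rows were joined by feature number, control spots and outlier-flagged spots left out (except the flags of control 2), probes kept where well above background on all arrays of a group (control 2 not counted), and the probe with the highest mean used per gene name, giving 23054 features. Group means were fitted to all 9 columns with lmFit and eBayes (limma 3.58.1, R 4.3.3), two-sided, Benjamini-Hochberg threshold 0.05, tested on simulated data. A bound replaces a fold where no array of a group had the probe well above background, and it sets the bright group's mean against the dim group's mean of, per array, the higher of the lowest detected signal and the probe's own. Regions are named by the nearest protein-coding genes. Members and lists were chosen with earlier results of these data known. Named were the 15 largest calls each way, Drosha, Dicer1, messages reported as cleaved, up to 4 members per list of smallest p, and the others were chosen after their values were seen. Same-numbered control and Drosha-deleted samples deviated together at r = -0.12 to 0.07, so numbers were not used to pair. One called feature and 1 marker gene are not reported here.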

Additional observations from a re-analysis of the deposited data

How the results depend on the processing

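The 41 calls in Drosha-deleted against control shrank to 5 with the 6 control and Drosha-deleted columns alone, 13 with scanner values less the 75th percentile (12 without the control 2 array), 7 with normexp and quantile values, 26 with no filter, and 13 with slide as a block, which equals leaving out control 3. With arrayWeights there were 11648. The count stayed near 41 with a filter on the mean over all 9 columns (39) and with all kept probes of a gene averaged (40). It was 42 with the trend and robust options of eBayes. Of these, 39, 34 and 34 were among the 41. With the replicate block there were 4, although same-numbered samples did not deviate together. Leaving out a column gave 6 to 7751 calls: 7751 without control 1, 6 without control 2, 13 without control 3, 6, 7 and 61 without Drosha-deleted 1, 2 and 3, and 17, 18 and 47 without Dicer-deleted 1, 2 and 3. Control 1 alone, an alternative chosen after seeing the data, gave 33. The 29 higher and 12 lower features kept their direction in every alternative run for them (21, except 20 for Cd209e and Fmr1nb and 15 for Gm2509), but 2 and 2 kept their call in each. Directions turned for values near 0. Dicer1 against control was -0.068 with arrayWeights, and -0.0265 to 0.377 with a column left out. Against Dicer-deleted cultures, with a column left out, Pdpn ranged from -0.0184 to 0.319 and Fmr1nb from -0.106 to 0.0499. Scanner values of all 9 arrays shifted the median of all features to 0.28 and moved 17 of the 51 list medians that moved, of 504. The number of arrays limits the precision, and 1 control array has a flawed scanner file. The cause of these changes was not tested.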
